A study of Homo sapiens with 5 samples.

Results

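Granins and prohormone processing genes were followed in 2 human pigment cell lines in which BPTF, the defining subunit of the NURF chromatin-remodelling complex, had been targeted by a lentiviral shRNA (shBPTF). The genes are 5 granin family members (CHGA, CHGB, SCG2, SCG3 and VGF), the convertase chaperone SCG5, the convertase inhibitor PCSK1N, the proprotein convertases PCSK1 and PCSK2, and the carboxypeptidase CPE. These 10 genes, of 31029 listed in every library, are a list drawn up by name and selected on their CPM (counts per 1e6 counted reads of the library) in both lines, so their difference between the lines is described here without a test. All 10 were found by their GENCODE names, and all 10 passed the filter on low counts.

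RNA-seq was carried out on 2 libraries of 501Mel shBPTF cells, an established human melanoma line, and 3 libraries of Hermes 3A shBPTF cells, an immortalised human melanocyte line. Both lines carried shBPTF and were selected for 5 days with puromycin at 3 µg per ml, and which of the pair of BPTF shRNAs was used for each library is not given in the sources used here. Control-shRNA libraries were not analysed here, so the libraries compare one knocked-down line with another and no effect of BPTF can be read from them. Each line is a single established line grown in its own medium: 501Mel cells received serum alone, whereas the Hermes 3A medium also held the phorbol ester TPA, cholera toxin, stem cell factor and endothelin. Line and medium therefore cannot be told apart in any difference below. The study's methods state that all experiments were done at least 3 times, but not that these libraries came from separate cultures. The spread between replicates may therefore be technical.

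Granins are acidic, calcium-binding proteins that aggregate in the trans-Golgi network and fill the dense-core granules of endocrine cells and neurons, from which they are released by regulated exocytosis. Many are themselves precursors of peptides. Prohormones in the same granules are cut after pairs of basic residues by PCSK1 and PCSK2, the exposed basic residues are then trimmed by CPE, and SCG5 and PCSK1N act on PCSK2 and PCSK1, respectively. In skin, melanocytes lie in the neural crest lineage and are known to make some of this machinery, which processes the melanocortin precursor POMC. POMC itself was listed at 0 reads in all 5 libraries.

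Several granin promoters are textbook targets of the cyclic AMP responsive factor CREB, so the RefSeq promoter windows of the genes (250 bases before to 50 bases after the start, GRCh38.p14) were searched on both strands. A window was found for 8 of the 10 genes, with 2 windows each for PCSK1 and PCSK2. The full cyclic AMP response element, spelled TGACGTCA, was found in 3 of these 8 genes and in 1.85% of all 35116 windows. The last 100 bases before the start of those 3 genes are shown 5′ to 3′ on the gene's strand, with the element in capitals.
PCSK1, chr5:96433249-96433348, minus strand: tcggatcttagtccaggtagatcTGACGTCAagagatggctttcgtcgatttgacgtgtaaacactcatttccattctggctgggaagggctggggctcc
VGF, chr7:101165570-101165669, minus strand: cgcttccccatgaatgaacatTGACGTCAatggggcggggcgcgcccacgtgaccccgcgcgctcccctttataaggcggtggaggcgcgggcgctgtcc
CHGA, chr14:92923050-92923149, plus strand: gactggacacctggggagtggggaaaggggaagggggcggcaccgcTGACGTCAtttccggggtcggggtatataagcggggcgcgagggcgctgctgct

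The element began 77 bases before the start in PCSK1, 79 in VGF and 54 in CHGA. Its shorter core TGACG, which lies inside the full element, was found in 7 of the 8 genes and in 24.6% of all windows. The E-box CACGTG, the sequence bound by bHLH-Zip factors such as MITF, was found in VGF only among the 8 and in 7.26% of all windows, and the M-box core CATGTG in none of the 8 and in 11.1% of windows. Of the cores of the element bound by REST, the repressor of neuronal genes, CAGCACC was found in SCG3 (7.75% of windows) and GGACAG in PCSK1, PCSK2, SCG3 and VGF (20.5% of windows). These matches describe letters in a window and were not tested for binding.

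The libraries held between 30073071 and 43032311 counted reads, so that 3 reads corresponded to 0.0697 to 0.0998 CPM. BPTF itself was at 61.8 ± 5.65 CPM in 501Mel (SD, n = 2) and 50.5 ± 4.30 CPM in Hermes 3A (SD, n = 3), and MITF, the master regulator of the lineage, was at 778 ± 108 and 665 ± 19.0 CPM. All 9 melanocytic markers had at least 10 reads in every library of both lines. They summed to 13665 and 21281 CPM in 501Mel and to 32132 to 33132 CPM in Hermes 3A, with PMEL the highest in both. The markers did not share 1 direction. Means were higher in 501Mel for DCT (1184 against 9.76 CPM), SLC45A2 (913 against 5.89 CPM) and MITF, and higher in Hermes 3A for the others. The endocrine and chromaffin cell markers were at or near the floor, since none of the 10 reached 10 reads in every library of either line, and the 6 listed in every library summed to between 0.0792 and 0.392 CPM. In bulk RNA, fewer cells expressing a gene and less RNA per cell cannot be told apart.

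**Figure D1:**
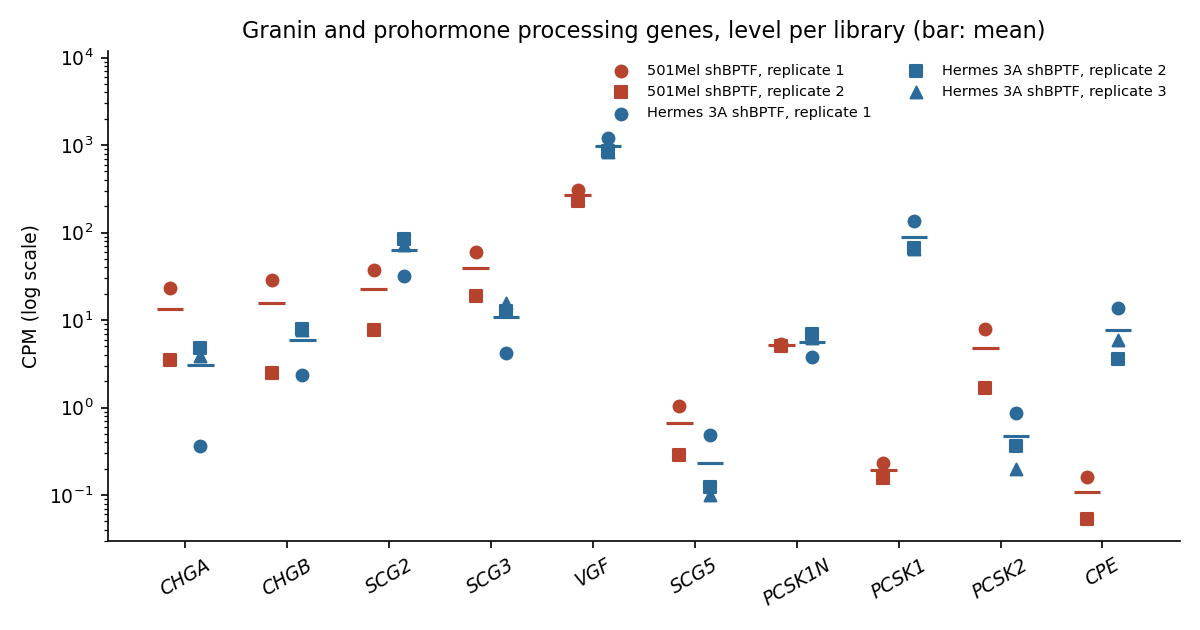
Level of each gene in each library (points, CPM on a log axis) with the mean of each line (bars), 501Mel shBPTF in red and Hermes 3A shBPTF in blue. PCSK1 and CPE lie far lower in both 501Mel libraries than in any Hermes 3A library, PCSK2 lies higher, and the points of CHGA, CHGB, SCG2, SCG5 and PCSK1N overlap between the lines.

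The fitted difference between the lines was at least 2-fold for 9 of the 10 genes, all but PCSK1N, where 41.4% of the 17918 tested genes were as far apart. The CPM ranges of the lines were separate for 5 genes. SCG3 and PCSK2 lay higher in 501Mel (2 of 10, against 38.0% of all tested genes), and VGF, PCSK1 and CPE lay higher in Hermes 3A (3 of 10, against 31.9%). Nothing is read from these counts, as the genes were chosen by their levels in these libraries.

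Among the granins, the levels of CHGA and CHGB varied more between replicates of either line than between the line means. SCG2 did so in 501Mel only, at 4.90-fold between replicates against 2.79-fold between the means. CHGA (chromogranin A, on chromosome 14), the best known marker of neuroendocrine cells, was at 23.1 and 3.46 CPM in the 501Mel libraries and at 0.360, 4.85 and 3.89 CPM in the Hermes 3A libraries. Its second 501Mel library lay below 2 of the 3 Hermes 3A libraries, so the lines overlapped. The means were 13.3 ± 13.9 CPM (SD, n = 2) and 3.03 ± 2.36 CPM (SD, n = 3), with a fitted log2 difference of 501Mel minus Hermes 3A of 2.09 ± 1.00 (SE). This difference dropped to 0.15 without the first 501Mel library and was 2.87 without the second.

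CHGB (chromogranin B, chromosome 20), a matrix protein of the same granules, was at 29.05 and 2.46 CPM in 501Mel and at 2.33, 7.90 and 7.75 CPM in Hermes 3A. Only its first 501Mel library stood above the Hermes 3A libraries. The fitted log2 difference of 1.34 ± 0.89 rested on that library: without it the difference was -1.33, with Hermes 3A higher, and without the second 501Mel library it was 2.21.

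SCG2 (secretogranin II, chromosome 2), the precursor of the neuropeptide secretoneurin, was at 37.4 and 7.63 CPM in 501Mel and at 31.7, 85.2 and 71.5 CPM in Hermes 3A. The first 501Mel library lay just above the lowest Hermes 3A library, and the second lay below all of them. The means were 22.5 ± 21.1 CPM and 62.8 ± 27.8 CPM, and the fitted log2 difference was -1.53 ± 0.66, ranging from -3.09 without the first 501Mel library to -0.82 without the second.

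SCG3 (secretogranin III, chromosome 15), which tethers chromogranin A aggregates to the granule membrane, was at 60.6 and 18.8 CPM in 501Mel and at 4.25, 12.7 and 15.6 CPM in Hermes 3A. Both 501Mel libraries were above all 3 Hermes 3A libraries, by a small margin for the second. The mean was 39.7 ± 29.6 CPM in 501Mel and 10.8 ± 5.87 CPM in Hermes 3A, a fitted log2 difference of 1.82 ± 0.59 that dropped to 0.75 without the first 501Mel library.

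VGF (chromosome 7), a granin-like precursor of several secreted peptides that is induced by nerve growth factor in neurons, was by far the most abundant of the genes. Its level was 308 and 232 CPM in 501Mel and 1221, 856 and 838 CPM in Hermes 3A. The lines were well separated and replicates lay close together, the highest over the lowest being 1.33 in 501Mel and 1.46 in Hermes 3A. The means of 270 ± 53.7 CPM and 971 ± 216 CPM differed 3.59-fold, with a fitted log2 difference of -1.92 ± 0.26 that stayed between -2.13 and -1.70 when any single library was left out.

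The regulators of the convertases were low in both lines. SCG5 (chromosome 15), the chaperone needed for PCSK2 to mature, had 45 and 11 reads in 501Mel and 20, 5 and 3 reads in Hermes 3A, or 1.05 and 0.291 CPM against 0.480, 0.122 and 0.0998 CPM. The second 501Mel library lay below the first Hermes 3A library, and at this depth the 95% Poisson intervals of those libraries overlapped (0.145 to 0.520 and 0.293 to 0.742 CPM). Its fitted log2 difference of 1.38 ± 0.84 dropped to 0.20 without the first 501Mel library and reached 2.50 without the first Hermes 3A library. The annotation places an antisense gene, AC123768.1, over 11 bases of its exons, and that gene had 2 reads in each 501Mel library and 0 in every Hermes 3A library.

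PCSK1N (proSAAS, chromosome X), the granin-like inhibitor of PCSK1, differed least of the 10. It was at 5.28 and 5.02 CPM in 501Mel and at 3.79, 7.02 and 6.22 CPM in Hermes 3A, so that both 501Mel libraries lay inside the Hermes 3A range. The fitted log2 difference was -0.20 ± 0.34.

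The convertases themselves lay in opposite directions in these libraries. PCSK1 (also called PC1/3, chromosome 5), which makes the first cuts in many prohormones, had 10 and 6 reads in 501Mel and 5617, 2746 and 1957 reads in Hermes 3A. These correspond to 0.232 and 0.158 CPM, with 95% Poisson intervals of 0.111 to 0.427 and 0.0582 to 0.345, against 135, 67.2 and 65.1 CPM. The mean in Hermes 3A (89.0 ± 39.7 CPM) was 456-fold above that in 501Mel (0.195 ± 0.0522 CPM). The fitted log2 difference was -8.88 ± 0.59 and stayed between -9.18 and -8.42 when single libraries were left out, the widest gap among the 10 genes.

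PCSK2 (PC2, chromosome 20), which acts later and cuts PCSK1 products into smaller peptides, showed the opposite order at much lower levels. It was at 7.85 and 1.69 CPM in 501Mel and at 0.864, 0.367 and 0.1995 CPM in Hermes 3A. Every 501Mel library was above every Hermes 3A library, although the first 501Mel library was 4.65-fold above the second. The means were 4.77 ± 4.36 CPM and 0.477 ± 0.346 CPM, and the fitted log2 difference of 3.20 ± 0.80 dropped to 1.72 without the first 501Mel library and reached 3.97 without the first Hermes 3A library.

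Set per kb of exon, so that genes of different length can be compared, PCSK2 exceeded PCSK1 25.3-fold and 8.00-fold in the 501Mel libraries. PCSK1 exceeded PCSK2 208-fold, 244-fold and 435-fold in the Hermes 3A libraries. The size of these ratios is uncertain, as the lower gene had few reads. PCSK1 had 10 and 6 reads in 501Mel, and PCSK2 had 36, 15 and 6 reads in Hermes 3A. Of these 2 convertases, the higher per kb was thus PCSK2 in both 501Mel libraries and PCSK1 in all 3 Hermes 3A libraries.

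CPE (carboxypeptidase E, chromosome 4), the trimming enzyme that follows both convertases, was close to the detection floor in 501Mel. It had 7 and 2 reads there, or 0.163 and 0.0528 CPM with 95% Poisson intervals of 0.0654 to 0.335 and 0.0064 to 0.191. In Hermes 3A it had 574, 147 and 180 reads, or 13.8, 3.60 and 5.99 CPM. All Hermes 3A libraries were above both 501Mel libraries, and the fitted log2 difference was -6.20 ± 0.90, between -7.19 and -5.46 when single libraries were left out.

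**Figure D2:**
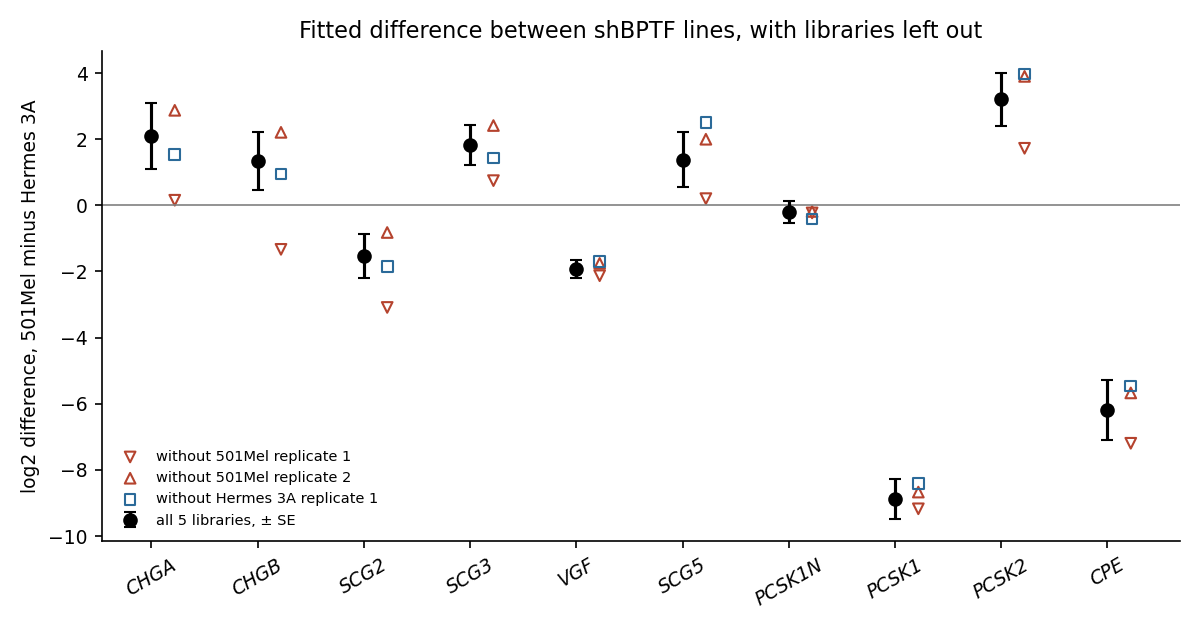
Fitted log2 difference of 501Mel minus Hermes 3A for each gene with all 5 libraries (black, bars are the SE) and without the first or second 501Mel or the first Hermes 3A library (open symbols). PCSK1, CPE and VGF keep their place. Without the first 501Mel library, CHGB falls from 1.34 to -1.33, CHGA and SCG5 approach 0, and SCG3 falls to 0.75.

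The separation of the ranges depended on which libraries were counted. Without the second 501Mel library, 5 genes lay higher in 501Mel (CHGA, CHGB, SCG3, SCG5 and PCSK2, against 44.7% of all tested genes). Without the first Hermes 3A library, 5 genes lay higher in Hermes 3A (SCG2, VGF, PCSK1, PCSK1N and CPE, against 38.5%). Leaving out a library can only add separate ranges, so it says nothing about the 5 genes separate with all libraries.

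Per kb of merged exon, VGF ranked first in both lines, at 100 ± 19.9 CPM per kb in 501Mel and 359 ± 79.9 CPM per kb in Hermes 3A, and its range met that of no other member. It made up 65.2% and 85.5% of the summed CPM of the 10 genes in 501Mel and 81.9% to 86.4% in Hermes 3A. In 501Mel it was followed by SCG3 (11.96 ± 8.92 CPM per kb), SCG2, CHGA, PCSK1N and CHGB, and each of these overlapped the next in the order. PCSK2 and SCG5 came after them, and PCSK1 and CPE were last, at 0.0368 ± 0.00985 and 0.0364 ± 0.0263 CPM per kb, below the ranges of all others and overlapping each other.

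In Hermes 3A, VGF was followed by SCG2 (23.1 ± 10.2 CPM per kb) and PCSK1 (16.8 ± 7.48 CPM per kb), which overlapped each other and lay above the rest. PCSK1N, SCG3, CPE, CHGB and CHGA then followed with overlapping neighbours. SCG5 and PCSK2 were last, the latter at 0.0674 ± 0.0488 CPM per kb. PCSK1 was thus the second gene after VGF in Hermes 3A and next to last in 501Mel.

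Replicates of 501Mel differed widely for most of the genes, though not for VGF, PCSK1 and PCSK1N. The first 501Mel library was at least 2-fold above the second in CPM for 7 of the 10 genes, against 9.21% of all tested genes. These were CHGA, CHGB, SCG2, SCG3, SCG5, PCSK2 and CPE. For CPE the reads were only 7 and 2, and the 95% Poisson intervals overlapped (0.0654 to 0.335 and 0.0064 to 0.191 CPM). The first library was at least 2-fold below the second for 0 of the 10, against 5.69%. On the log2(CPM + 0.5) scale, which understates the change of low genes, the first library exceeded the second by 3.32 for CHGB, 2.58 for CHGA, 2.22 for SCG2, 1.93 for PCSK2 and 1.67 for SCG3. The middle 90% of all tested genes lay between -0.60 and 0.84, with a median of 0.04. VGF (0.41), PCSK1 (0.15), PCSK1N (0.07) and CPE (0.26) lay inside that range. Only 2 libraries are involved, and the CPM that chose the genes are the same, so this is a description of these libraries.

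**Figure D3:**
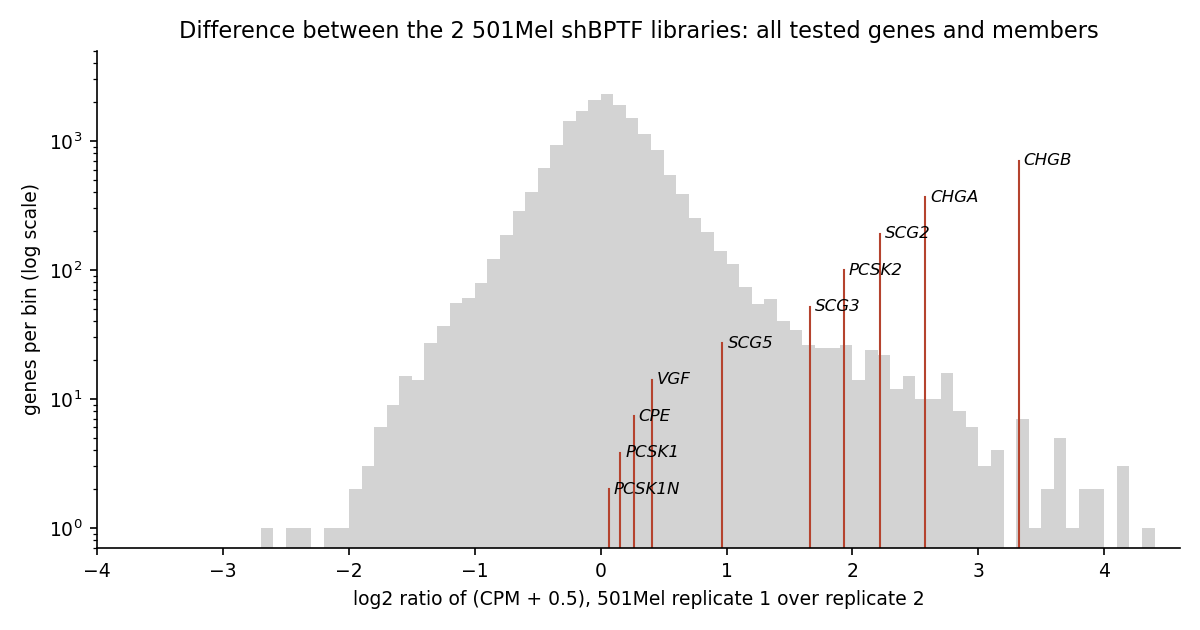
Log2 ratio of the first over the second 501Mel library on the CPM + 0.5 scale for all 17918 tested genes (grey histogram, genes per bin on a log axis) and for the 10 genes (red lines, of heights chosen only to separate the names). CHGB at 3.32, CHGA at 2.58, SCG2 at 2.22, PCSK2 at 1.93 and SCG3 at 1.67 lie in the right tail, while PCSK1N, PCSK1, CPE and VGF lie near the bulk.

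Other quantities moved between the same libraries. The summed melanocytic markers were at 13665 CPM in the first and 21281 CPM in the second 501Mel library. The 6 fibroblast markers summed to 18.9 and 4.31 CPM with none at 0 throughout the line. The 3 keratinocyte markers listed in every library summed to 32.9 and 34.3 CPM, mostly KRT10. The 9 pan-neuronal markers summed to 155 and 214 CPM, none at 0 throughout. Of these, SYP (86.4 and 158 CPM) and SNAP25 (14.8 and 24.9 CPM) were higher in the second library. MAP2 (45.9 and 25.7 CPM) and SYN1 (4.74 and 2.22 CPM) were lower in it. Of the endocrine and chromaffin markers, 4 were at 0 in both 501Mel libraries. The part of other cell types in the replicate difference was not tested.

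In Hermes 3A the first library was lower for most granins and higher for the enzymes. It was at least 2-fold below both other libraries for CHGA, CHGB, SCG2 and SCG3 (4 of 10, against 9.97% of all tested genes) and at least 2-fold above both for SCG5, PCSK1, PCSK2 and CPE (4 of 10, against 3.52%). CHGA was 12.1-fold lower in the first library than in the mean of the others, while PCSK1 was 2.04-fold, PCSK2 3.05-fold and CPE 2.88-fold higher. VGF, alone among the granins, was 1.44-fold higher in the first library. Reads were few for SCG5 (20, 5 and 3) and PCSK2 (36, 15 and 6). The CPM that chose the genes are the same, and a single library is set apart, so this is a description of these libraries.

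**Figure D4:**
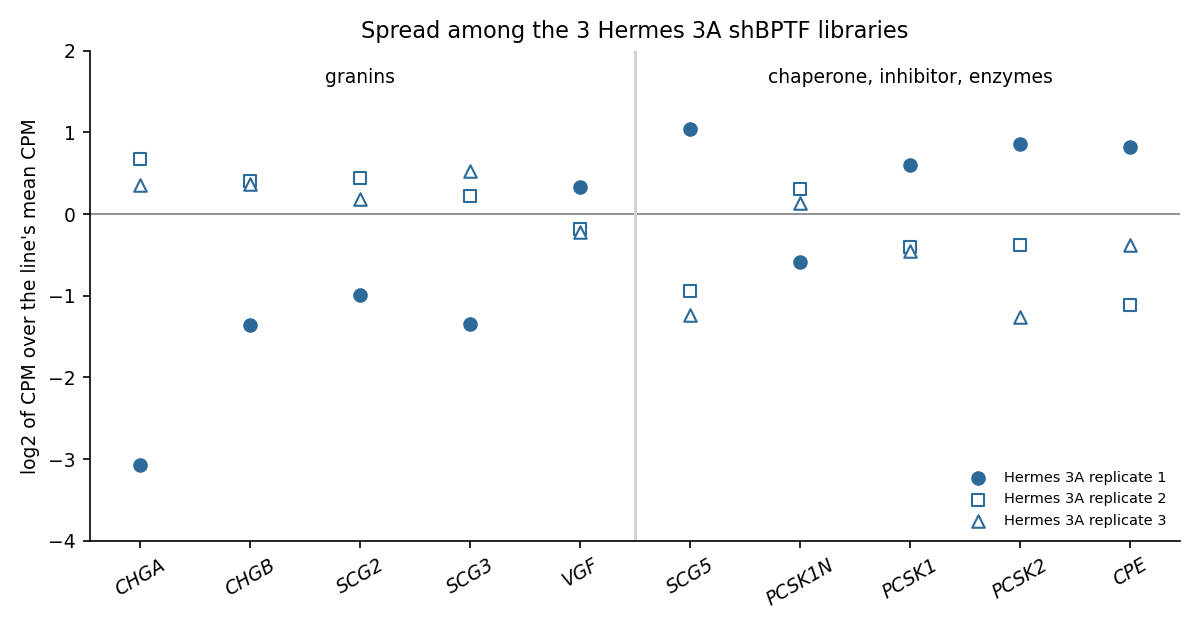
Log2 of the CPM of each Hermes 3A library over the mean of the line, for the granins (left) and for the chaperone, inhibitor and enzymes (right), with the first library as filled circles. The first library is lowest for CHGA, CHGB, SCG2, SCG3 and PCSK1N and highest for VGF, SCG5, PCSK1, PCSK2 and CPE.

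The summed fibroblast markers also differed between these libraries, at 78.3 CPM in the first and 183 and 190 CPM in the others, most of it COL1A2. COL1A1 (0.456 CPM in the first against 1.05 and 0.532 CPM) and COL3A1 (0 reads against 4 and 9) were also lowest there, at low levels. LUM went the other way, at 7.35 CPM in the first against 1.13 and 0.964 CPM. PDGFRA was slightly higher in the first (0.960 against 0.905 and 0.765 CPM), and DCN had 2, 2 and 1 reads. The summed pan-neuronal markers were at 85.7 CPM against 186 and 182 CPM. Melanocytic markers were at 33132, 32700 and 32132 CPM and the keratinocyte markers at 48.2, 43.9 and 44.2 CPM. None of the fibroblast or pan-neuronal markers was at 0 throughout Hermes 3A, and 2 of the endocrine and chromaffin markers were. The part of other cell types in this spread was not tested.

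The rest of the secretory pathway was tested by the difference between the lines, with edgeR and p-values adjusted over all 17918 genes. Calls needed both an adjusted p of at most 0.05 and a 2-fold or wider difference. These limits were met by 17.2% of tested genes as higher in 501Mel and by 17.1% as lower.

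Of 21 other convertases and peptide-maturing enzymes, 20 could be tested. None was higher in 501Mel, 5 were lower (CPM, the gene of carboxypeptidase M, with FURIN, PAM, PCSK4 and TPST1), and 15 were not called. The list's median log2 difference was -0.61, where that of all tested genes was 0.02. PAM, which forms the amidated end of many neuropeptides, was at 67.1 and 16.2 CPM in 501Mel and at 406, 262 and 256 CPM in Hermes 3A, without overlap. Its log2 difference was -2.97 ± 0.60 (adjusted p = 0.00585), and it was -4.32 without the first and -2.30 without the second 501Mel library. FURIN, the convertase of the constitutive pathway, was at 93.3 and 76.5 CPM in 501Mel and 435, 396 and 384 CPM in Hermes 3A, a log2 difference of -2.32 ± 0.17 (adjusted p = 0.000117). PCSK4, a convertase best known from germ cells, had a log2 difference of -2.35 ± 0.54 (adjusted p = 0.0098), which was no longer called without the first 501Mel library (adjusted p = 0.0556) and was -3.004 without the second.

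Of 38 genes of dense-core granule biogenesis, cargo and exocytosis, 33 could be tested, of which 2 were higher in 501Mel, 13 lower and 18 not called (median log2 difference -0.51). A gene near 0 in one line passed the filter only through the line where it was high and so had to differ, here and in the lists that follow. Of the 25 granule genes with at least 10 reads in every library, 0 were higher and 8 lower. Of all 13823 genes under that filter, for comparison here and in the lists that follow, 1977 were higher and 1898 lower. The higher genes were CADPS2, a priming factor for granule exocytosis, at 25.9 and 34.2 CPM against 0.192, 0.0979 and 0.0998 CPM (log2 difference 7.73 ± 0.38, adjusted p = 2.39e-05), and the small GTPase RAB3B, at 12.97 and 6.82 CPM against 0.168, 0.563 and 0.233 CPM (log2 difference 4.86 ± 0.56, adjusted p = 0.000612, and 5.48 without the second Hermes 3A library). Both were well above the Hermes 3A range in each 501Mel library.

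The lower granule genes included CADPS, the paralogue of CADPS2, and the granule membrane proteins PTPRN and PTPRN2. CYB561, the cytochrome that feeds electrons into the granule, had 0 and 3 reads in 501Mel and 1197, 1537 and 1026 reads in Hermes 3A, a ratio of summed depth-scaled reads of 900 (95% interval 308 to 4368, counting error only). Its fitted log2 difference of -9.75 was -8.72 without the first 501Mel library. The Rab27 effector SYTL5 was at 0.465 and 0.0792 CPM in 501Mel against 55.4, 60.8 and 39.5 CPM (log2 difference -7.58 ± 0.57, adjusted p = 0.000117), with a difference of -9.35 without the first 501Mel library and -6.88 without the second. RAB27B, which docks secretory granules, was at 0.0697 and 0.0792 CPM against 3.99, 2.64 and 1.70 CPM (log2 difference -5.24 ± 0.67, adjusted p = 0.000893). The other lower genes were ICA1, RAB27A, RAB3D, RPH3A, RUNDC3A, SYT5 and SYTL4, and the lower count was 8 without the second 501Mel library.

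Of 61 precursors of peptide hormones, neuropeptides and neurotrophins, 43 were listed in every library and 18 could be tested, of which 1 was higher in 501Mel, 9 were lower and 8 were not called (median log2 difference -1.27). Of the 8 with at least 10 reads in every library, 0 were higher and 3 lower. The higher one was NTS, the neurotensin precursor, at 9.37 and 1.11 CPM in 501Mel and at most 0.192 CPM in Hermes 3A (log2 difference 5.31 ± 0.96, adjusted p = 0.00377). The difference was 3.09 without the first 501Mel library and 6.12 without the second. Its count in the first 501Mel library was 403 and in the second 42, a difference on the same side as that of the granins. The list was split in this respect. Of the 18 tested precursors, 5 were at least 2-fold higher in CPM in the first 501Mel library and 4 at least 2-fold lower, against 9.21% and 5.69% of all tested genes. Without the second 501Mel library 3 precursors were higher.

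The lower precursors were ADM2, BDNF, IGF1, NMU, NTF3, PENK, PTHLH, RLN2 and UCN2. NTF3, the neurotrophin-3 precursor, had 0 reads in both 501Mel libraries and was at 3.79, 4.48 and 4.06 CPM in Hermes 3A, at least 51.9-fold higher when 501Mel is set to 3 reads in its shallower library (adjusted p = 0.000226). PENK, the enkephalin precursor, had 0 and 2 reads in 501Mel and 2417, 829 and 419 reads in Hermes 3A, a depth-scaled ratio of 1317 (95% interval 364 to 10875, counting error only). Its fitted log2 difference was -9.29 without the first Hermes 3A library, against -10.2 with all libraries. NMU, the neuromedin U precursor, had 0 reads in both 501Mel libraries and 147, 18 and 4 reads in Hermes 3A (adjusted p = 0.0324), most of them in the first Hermes 3A library. It was no longer called without either 501Mel library, with an adjusted p of up to 0.11, and it did not pass the filter on low counts without the first or the second Hermes 3A library.

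Of 26 neuroendocrine transcription factors, 12 could be tested, of which 4 were higher in 501Mel (among them CREM, INSM1 and INSM2), 1 was lower (NKX2-2) and 7 were not called (median log2 difference 0.17). Of the 7 with at least 10 reads in every library, 1 was higher and 0 were lower. INSM1, INSM2 and NKX2-2 were under 1 CPM in 501Mel. INSM2 was at 0.720 and 0.660 CPM in 501Mel and at most 0.0734 CPM in Hermes 3A (log2 difference 3.79 ± 0.79, adjusted p = 0.00613, and 3.19 without the first Hermes 3A library). INSM1, a zinc-finger factor of endocrine progenitors, was at 0.674 and 0.687 CPM against 0.0480, 0.294 and 0.133 CPM, and its call (log2 difference 2.03 ± 0.66, adjusted p = 0.0376) was lost in 3 of the 5 fits that left out a library, with an adjusted p of up to 0.138, and the difference was 2.80 without the second Hermes 3A library. NKX2-2 was at 0.372 and 0.238 CPM in 501Mel and 6.29, 2.15 and 2.89 CPM in Hermes 3A (log2 difference -3.70 ± 0.68, adjusted p = 0.00394, and -3.08 without the first Hermes 3A library). In the fits without the first library of either line, 2 factors were lower.

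REST, whose loss frees many granin genes from repression in neuroendocrine cells, was at 36.4 and 28.6 CPM in 501Mel and 31.3, 33.2 and 34.8 CPM in Hermes 3A. The libraries overlapped, and the log2 difference of -0.09 ± 0.17 was not called (adjusted p = 0.673).

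**Figure D5:**
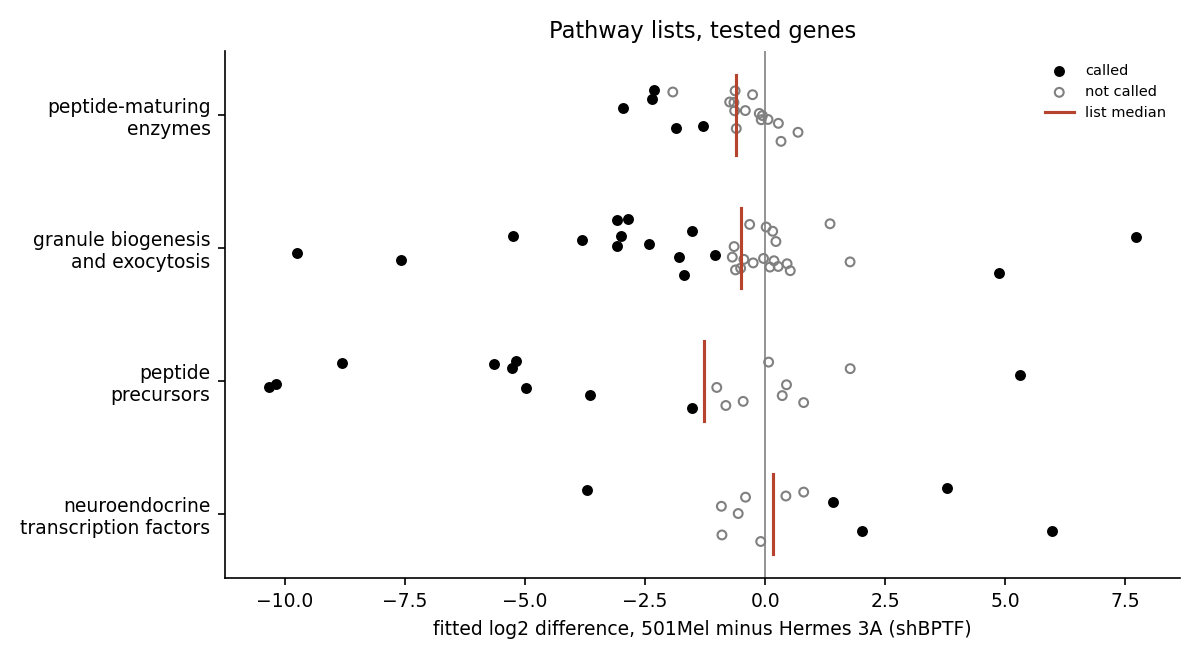
Fitted log2 difference of 501Mel minus Hermes 3A for each tested gene of the 4 pathway lists (filled when called, open when not), with the list median as a red line. The medians are -0.61, -0.51, -1.27 and 0.17 from top to bottom, and called genes lie on both sides of 0 in every list but the enzymes.

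The genes with the profile most like that of PCSK2 and PCSK1 were ranked by the root mean square distance between centred log2(CPM + 0.5) profiles over the 5 libraries, among 17908 other genes. The closest to PCSK2 were ARHGDIB (0.16), STK26 (0.20) and EMID1 (0.25). ARHGDIB was at 5.04 and 1.35 CPM in 501Mel and 0.384, 0.0489 and 0.0333 CPM in Hermes 3A, so it shared both the gap between the lines and the higher first library. The closest to PCSK1 were SPHK1 (0.17), FXYD5 (0.20) and NT5E (0.21). SPHK1, a sphingosine kinase, was at 0.558 and 0.396 CPM in 501Mel and at 182, 103 and 69.7 CPM in Hermes 3A. The likeness is a description over 5 libraries of 2 lines that lie apart.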

How the data were processed

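Total RNA depleted of ribosomal RNA was sequenced by the study's authors from libraries normalised with duplex-specific nuclease, a step that can compress the levels of abundant transcripts. The deposited values are raw read counts per Ensembl gene, one table per library. The labels name hg19, CASAVA 1.8, TopHat 1.4.1 and Bowtie 0.12.7; the counting program, the annotation and the strand setting are not given in the sources used here. The tables of the lines list different genes (37259 for 501Mel and 34033 for Hermes 3A), and the 31029 listed in both were used. Names came from GENCODE 29 and matched 36899 of the 40263 listed genes.

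Counts were divided by the library total for CPM. The 17918 genes passing filterByExpr were fitted with edgeR 4.0.16 (TMM, quasi-likelihood test, R 4.3.3) on 2 libraries against 3, with Benjamini-Hochberg adjustment; the SE is the log2 coefficient divided by the square root of F. The scripts were tested on simulated counts. No pair of replicates differed by as little as sampling noise. Poisson and ratio intervals are 95% and exact and cover counting error only.

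The members and gene lists were chosen with earlier results of these data known. Named were all members, up to 3 called genes with the largest difference in each direction of each list, REST, FURIN, BPTF and MITF, and the 3 nearest profiles to the members with the widest gap in each direction. The values of 1 gene named by this rule are not reported here. Alternatives were other scalings, filters and fold thresholds, DESeq2 1.42.0, limma-voom (limma 3.58.1), a replicate block and leaving out each library.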

Additional observations from a re-analysis of the deposited data

How the results depend on the processing

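Of the counts recomputed, 133 stayed within 1.5 times the value reported and 19 did not. With at least 10 reads in every library, 1977 of 13823 tested genes were higher and 1898 lower in 501Mel. The counts were then 0 higher and 8 lower for granule genes, 0 and 3 for peptide precursors, and 1 and 0 for transcription factors. Of 6 testable members, 5 were at least 2-fold apart. This filter removes genes near 0 in one line. Without a filter 2 peptide precursors were higher. Without a fold threshold 9 enzymes and 3 transcription factors were lower. Leaving out each library gave 2211 to 3182 genes higher and 2632 to 3301 lower, 3 to 6 enzymes lower, 2 to 3 granule genes higher and 8 to 13 lower, 1 to 3 precursors higher and 7 to 9 lower, 3 to 4 factors higher and 1 to 2 lower, 6 to 8 members at least 2-fold apart, and 2 to 5 members with separate ranges higher and 3 to 5 lower. Leaving out a 501Mel library leaves 1 library there, assumed to vary like those of Hermes 3A. Leaving out each library, the log2 difference ranged from -1.33 to 2.21 for CHGB, from -0.27 to 0.046 for REST and from -0.012 to 0.30 for MITF, CHGB being negative without the first 501Mel library and REST and MITF changing sign without the second. Of the values of single genes under all alternatives, 308 kept their direction and side of the threshold or stayed within the replicate spread, 10 moved beyond it, 8 lost their call and 3 changed sign. The cause of these changes was not tested.

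Same-numbered libraries of the lines are different cells and share only a number. Their deviations from the line means correlated at 0.10 for replicate 1 and 0.12 for replicate 2. With 2 libraries the 501Mel deviations are mirror images, so these 2 correlations are not independent of each other. With the replicate block 2737 genes were higher and 2909 lower, and INSM1 was no longer called. It was not called by DESeq2 either. With library totals alone the median of all genes was 0.09 and without a filter 0.13, against 0.02. With the longest transcript as gene length, CHGB with PCSK1N and CPE with PCSK1 changed places in 501Mel, and the order in Hermes 3A was unchanged. Low counts limit SCG5 and PCSK2 in Hermes 3A and PCSK1 and CPE in 501Mel.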
